A study of Mus musculus with 7 samples.

Results

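DNA methylation in 1 library of mouse embryonic stem cells rescued with wild-type human UHRF1 was compared with 2 libraries of wild-type cells, at all 18189 cytosine sites of the deposited rescue table. These are 3 of the 7 libraries of the series, chosen by their labels and not by any measured value. All are J1 embryonic stem cells grown on gelatin in serum with leukemia inhibitory factor. No transgene is named for the wild-type cells. The rescue cells are Uhrf1-/- cells transfected with a plasmid for flag-myc-tagged wild-type human UHRF1, selected with hygromycin and grown from picked single colonies. The 2 Uhrf1-/- libraries are given beside them as the level before rescue. The rescue is a single library, so it has no spread of its own, and the colony, the selection, the human protein and the library cannot be told apart. Its differences are therefore set beside the gap between the wild-type libraries. With 1 library against 2, the smallest two-sided p of an exact permutation test is 0.333, so no mean was tested. The labels do not say that the wild-type libraries came from separate cultures. No RNA or protein was measured, so neither the transgene level nor the identity of the cells could be checked here.

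CpG methylation is copied to new DNA strands at each cell division. UHRF1 recognises the hemimethylated CpGs left by replication and brings in DNMT1, the maintenance methyltransferase, to complete them. Where maintenance has failed for many divisions, the parental pattern can no longer be copied at most sites, and methylation that returns there has to be placed anew by the de novo enzymes DNMT3A and DNMT3B. CpG islands, the dense CpG stretches at many promoters, are normally kept free of methylation, while most other CpGs in embryonic stem cells grown in serum are methylated.

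The measured positions are CpGs wherever their sequence could be read. Of the 18189 sites, 558 lay inside RefSeq promoter windows (GRCm38.p6, the assembly of mm10, from 250 bases before to 50 after a start), and 558 of these were the cytosine of a CpG on the listed strand. Of the windows, 59 held at least 2 sites of at least 10 reads in the wild-type and rescue libraries, and 10 of those were over 15% methylated in at least 1 of the 3 libraries. Windows from these 10 are shown because they place the return of methylation on the sequence. In Tmem88b and Cmtm1 the rescue stayed far below wild type, in Qrich2 it lay between the wild-type libraries, and in Nphs1, Nfix and Rnf224 it lay above both. The windows were picked after their values were seen, and sites beyond 30 bases after the start were not printed. Capitals mark the measured CpGs, each stretch is written 5′ to 3′ on the strand of the gene, and the positions are chr4:155785844-155785919 (minus strand), chr8:104310317-104310395 (minus), chr11:116454317-116454446 (minus), chr7:30459808-30460009 (plus), chr8:84773380-84773468 (minus) and chr2:25236930-25237037 (minus).
Tmem88b: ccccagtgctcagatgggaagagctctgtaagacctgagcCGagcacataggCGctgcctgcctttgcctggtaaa
Cmtm1: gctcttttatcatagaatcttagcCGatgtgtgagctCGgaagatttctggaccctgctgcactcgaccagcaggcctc
Qrich2: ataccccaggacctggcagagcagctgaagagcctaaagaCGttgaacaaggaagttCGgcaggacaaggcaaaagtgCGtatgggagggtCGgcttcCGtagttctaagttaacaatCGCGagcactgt
Nphs1: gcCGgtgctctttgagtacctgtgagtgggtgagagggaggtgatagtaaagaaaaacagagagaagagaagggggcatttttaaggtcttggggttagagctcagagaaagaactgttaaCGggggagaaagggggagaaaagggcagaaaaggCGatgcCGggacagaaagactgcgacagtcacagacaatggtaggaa
Nfix: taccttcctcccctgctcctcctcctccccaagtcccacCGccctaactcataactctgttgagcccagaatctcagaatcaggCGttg
Rnf224: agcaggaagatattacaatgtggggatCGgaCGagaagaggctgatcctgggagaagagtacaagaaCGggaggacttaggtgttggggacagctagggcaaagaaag

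At Tmem88b, which encodes a transmembrane protein, the CpG 5 bases before the start was methylated in 44.4% and 80% of reads in wild-type libraries 1 and 2 and in 6.67% of 30 reads in the rescue. The CpG 7 bases after the start measured 76.5%, 100% and 31.0% in the same order. Both CpGs were thus lower in the rescue than in either wild-type library. At Cmtm1, of the CKLF-like MARVEL transmembrane family, the pair measured 89.5% and 90% in wild-type library 1, 100% and 73.3% in library 2, and 50% and 16.7% in the rescue, where only 12 reads covered each CpG. The Uhrf1-/- libraries stood at 21.4% and 23.7% over this pair, not far under the rescue mean of 33.3%.

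Qrich2 encodes a protein of the sperm tail. Its 7 CpGs averaged 42.0% and 67.1% in wild type and 46.1% in the rescue, so the rescue fell inside a wide wild-type gap. Nphs1 encodes nephrin, of the filtration barrier of the kidney. Here 3 of the 4 printed CpGs measured 46.2%, 56.3% and 63.5% in the rescue, each above both wild-type libraries, while the CpG 89 bases before the start was at 0% in all 3 libraries. The zero and the 63.5% value are at CpGs 6 bases apart, the latter being 95 bases before the start. Nfix encodes a transcription factor of the nuclear factor I family. Its printed CpGs measured 13.5% and 10.9% in wild-type library 1, 12.4% and 19.15% in library 2, and 32.2% and 46.4% in the rescue, with 89 to 97 reads at each. At Rnf224, which encodes a RING finger protein, the CpG 219 bases before the start measured 26.3% and 50% in wild type and 72.5% in the rescue. The Uhrf1-/- libraries were at 0% over the printed CpGs of Nfix and Rnf224.

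The 3 libraries differed in depth. The sites summed to 257860 and 445233 reads in wild type and 668870 in the rescue, with medians of 10, 16 and 22 reads per site. At 10 reads 1 read is worth 10 percentage points, and the reads carry no molecular identifiers, so intervals below cover counting error only. Read counts of clusters and promoters are summed over sites, so a read that covers several sites is counted at each. The intervals treat these counts as independent and are too narrow. The 39 mitochondrial sites had 0.826%, 0.623% and 0.922% of reads methylated in wild-type libraries 1 and 2 and the rescue, so the background from unconverted cytosines differed little there. Libraries of wild type were not copies of each other: beyond counting noise they differed by a root mean square of 19.6 points per site.

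Averaged over all sites, methylation was 48.3% in wild-type library 1, 50.02% in library 2 and 45.3% in the rescue, against 9.59% ± 0.326 (SD, n = 2) in Uhrf1-/-. The rescue was below wild-type library 1 by a mean difference of -2.996 points and below library 2 by -4.76, where the wild-type libraries were 1.77 apart. This average gives each site the same weight. With reads pooled over all sites, the rescue lay between the wild-type libraries, at 44.0% against 38.2% and 49.3%, and the difference from their mean turned to 0.199 points. Sites with over 200 reads in any of the 3 libraries numbered 197 and held 11.8%, 18.0% and 20.6% of the reads. Without them the pooled difference was -1.01 points. The small mean difference therefore depends on how sites are weighted, and the results below are given by level and place.

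The shortfall was not even across methylation levels: strongly methylated sites came back too low and sparsely methylated sites too high. To keep the counting noise of a class from entering the difference, sites were classed by 1 wild-type library and the rescue was compared with the other. Over 5676 sites above 80% in wild-type library 1, library 2 averaged 84.9% and the rescue 74.0%, a difference of -10.9 points. With the wild-type libraries exchanged, 6109 sites gave 83.3% and 74.1%, a difference of -9.19 points. Over sites at or below 20% the sign was the opposite. The rescue was 2.29 points above wild-type library 2 over 6964 sites and 3.07 above library 1 over 6542. The sign changed from the class of 20% to 30% (1.80 points) to that of 30% to 40% (-4.36) when library 1 set the classes. When library 2 did, it changed from 30% to 40% (4.86 points) to 40% to 50% (-2.36). In the plot of mean methylation by wild-type class the curves cross once in each panel. Sites with intermediate levels depended on the choice of library, with differences of -7.31 and -3.32 points.

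**Figure D1:**
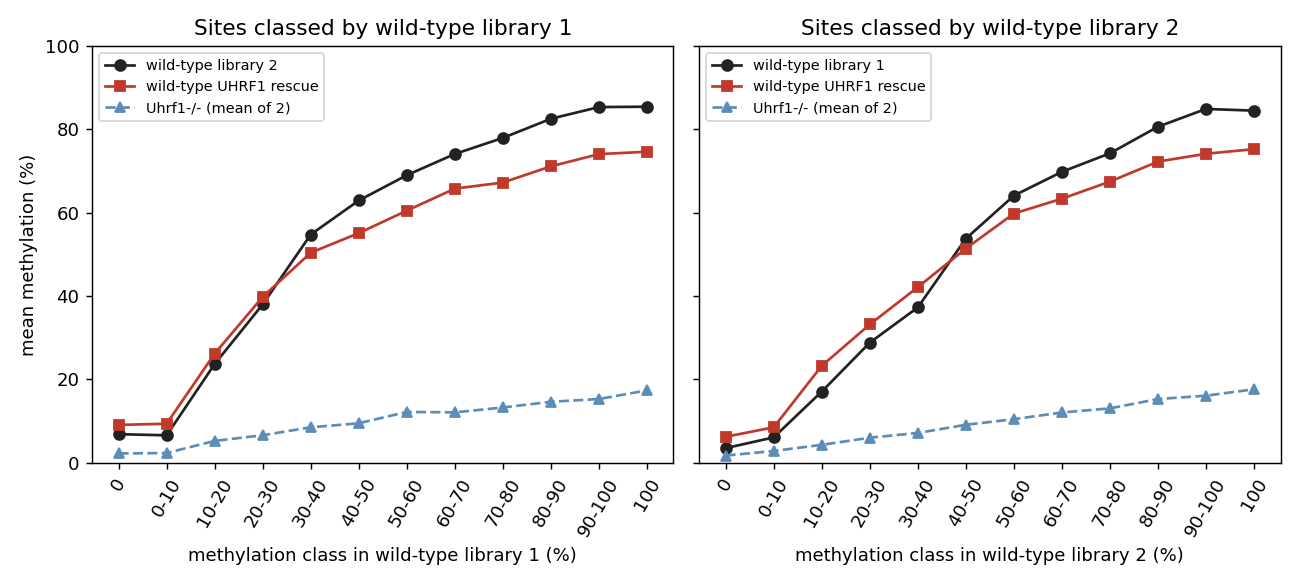
Mean methylation (%) of sites in each class of wild-type methylation, for the wild-type library that did not set the class (black), the rescue (red) and the mean of the 2 Uhrf1-/- libraries (blue). The rescue lies above the other wild-type library in the lowest classes and below it in the highest, by -10.8 points at sites fully methylated in library 1 and -9.23 points at those fully methylated in library 2.

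Sites that were unmethylated or fully methylated show the same in counts. Of 1145 sites at 100% in wild-type library 1, with at least 10 reads in each of the 3 libraries, 33.1% were at 100% in library 2 and 14.8% in the rescue. At 23.7% of them library 2 was at 80% or lower, against 53.8% for the rescue. Of 2412 sites at 0% in library 1, 78.2% were at 0% in library 2 and 68.6% in the rescue, and 6.01% and 9.83% had reached 20% or more. The rescue had more reads per site than library 2, and a deeper library has more chances to show a stray read at such sites. This bears on the shares at exactly 0% or 100%. It bears less on the shares at 20% or more, since 1 stray read counts for less in a deeper library. With the classes set on library 2, 27.5% of 807 fully methylated sites were at 80% or lower in library 1 and 55.3% in the rescue. Likewise 3.64% of 2305 unmethylated sites reached 20% in library 1 and 7.46% in the rescue.

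At 1773 sites with at least 20 reads in each of the 3 libraries, intermediate levels were more frequent in the rescue. Between 20% and 80% methylation lay 24.5% and 22.7% of sites in wild type and 34.8% in the rescue. Over 80% lay 18.2% and 21.4% in wild type and 11.6% in the rescue. Under 20% lay 57.3% and 55.8% in wild type and 53.6% in the rescue. The rescue was thus outside the wild-type pair in all 3 ranges. Mean methylation over these sites was nearly equal, at 31.9%, 33.4% and 31.2%. Outside CpG islands and their shores, which are the flanks of islands, 53.4% of 811 deep sites were intermediate in the rescue, beside 37.2% and 33.5% in wild type.

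**Figure D2:**
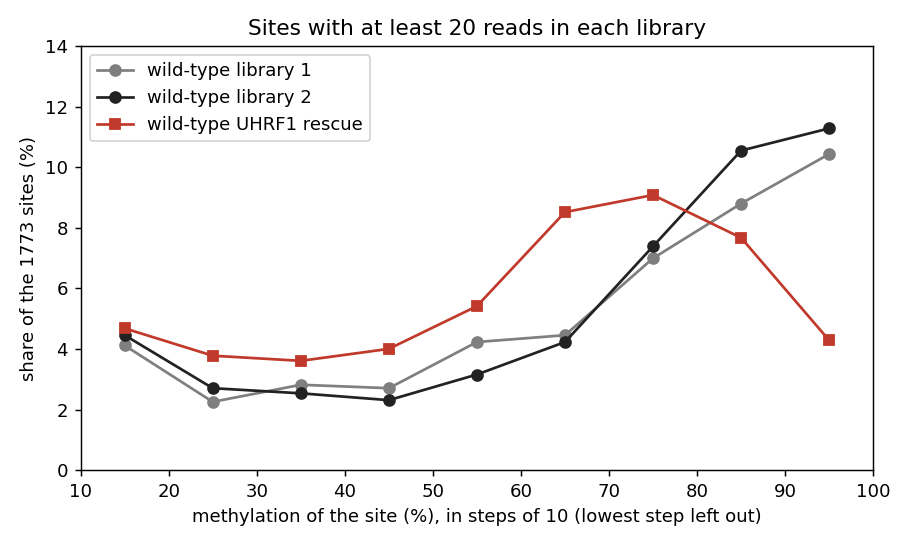
Share of the 1773 sites with at least 20 reads in each library (%) by methylation of the site in steps of 10 points, with the lowest step left out. Wild-type shares climb to 10.4% and 11.3% in the top step, while the rescue peaks at 9.08% between 70% and 80% and falls to 4.29% in the top step.

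Complete failure to regain methylation was rare. Among 490 sites that were at least 80% methylated in both wild-type libraries and at most 20% in both Uhrf1-/- libraries, with at least 10 reads in each of the 5, the rescue averaged 73.4%, with quartiles at 61.5%, 75.9% and 87.0%. Of these sites, 8 were under 20% in the rescue, 44 were between 20% and 50%, 232 between 50% and 80%, and 206 at 80% or above. The wild-type levels here were part of the choice and are not compared.

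The level left in Uhrf1-/- had no steady relation to the shortfall. Among sites outside islands and shores at 80% or more in wild-type library 1, those at 0% in Uhrf1-/- library 1 averaged 82.5% in wild-type library 2 and 70.4% in the rescue, a difference of -12.1 points. Those over 50% in Uhrf1-/- library 1 averaged 87.1% and 81.2%, a difference of -5.91 points over 286 sites. With the second library of each genotype setting the classes the differences were -9.46 and -9.14 points, so the smaller shortfall at sites that kept methylation was seen with 1 choice of libraries only.

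By place in the genome, the averages of promoters and islands lay between those of the wild-type libraries, while introns and intergenic sites stayed below. Intergenic sites averaged 60.4% and 62.3% in wild type and 54.9% in the rescue, and introns 59.9%, 61.7% and 55.4%. Exons followed with 57.2%, 59.2% and 54.8%. In these 3 classes the rescue lay below both wild-type libraries by more than the gap between them. The margin was narrowest in exons, with -2.36 points from library 1 against a gap of 2.05. Promoter sites, within 1000 bases of a start, averaged 22.8%, 24.3% and 23.3%, so the rescue fell between the wild-type libraries, and its sign depended on the library it was set against. The same held for islands, at 3.81%, 4.33% and 4.29%. In Uhrf1-/- promoter sites averaged 4.48% and islands 1.08%, so islands had little to regain. Island shores averaged 19.7%, 21.4% and 22.0%, which places the rescue above both by less than their gap. Outside islands and shores the averages were 62.4%, 64.3% and 57.4%.

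These averages mix sites of different level. Within promoters, sites over 80% in wild-type library 1 were -8.69 points below library 2 in the rescue, and sites at or below 20% were 1.79 points above. In introns the values were -11.7 and 3.38 points, in exons -9.72 and 6.40, and between genes -11.1 and 0.938. With library 2 setting the classes they were -6.66 and 2.42 in promoters, -10.05 and 4.75 in introns, -8.80 and 6.37 in exons, and -9.21 and 1.94 between genes. Each class of gene annotation therefore showed both signs, with the excess at low sites largest in exons. Islands differed at low levels by 0.145 and 0.573 points only. Island sites over 80% were few. They differed by -7.28 points over 20 sites with library 1 setting the classes and by -2.72 over 29 with library 2.

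All 19 autosomes averaged lower in the rescue than in both wild-type libraries, and the X chromosome averaged higher. The autosomal differences from the wild-type mean ran from -6.29 points on chromosome 1 to -1.37 points on chromosome 19. On the X chromosome the averages were 42.4% and 42.8% in wild type and 49.8% in the rescue, a difference of 7.20 points over 99 sites. Those sites form 29 groups of neighbouring sites, of which 13 were higher in the rescue and 11 lower. An 8-site cluster next to Tent5d, which encodes a poly(A) polymerase of the testis, carried much of the excess: without it the difference was 3.77 points over 91 sites. Of the 99 sites 43 were higher in the rescue, 25 lower and 31 equal, and without that cluster 36, 25 and 30. Between genes, with the cluster included, the difference was 7.89 points over 67 X sites and -6.61 over 4524 autosomal sites. The groups of neighbouring sites were thus divided in direction, while more single sites were higher than lower.

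**Figure D3:**
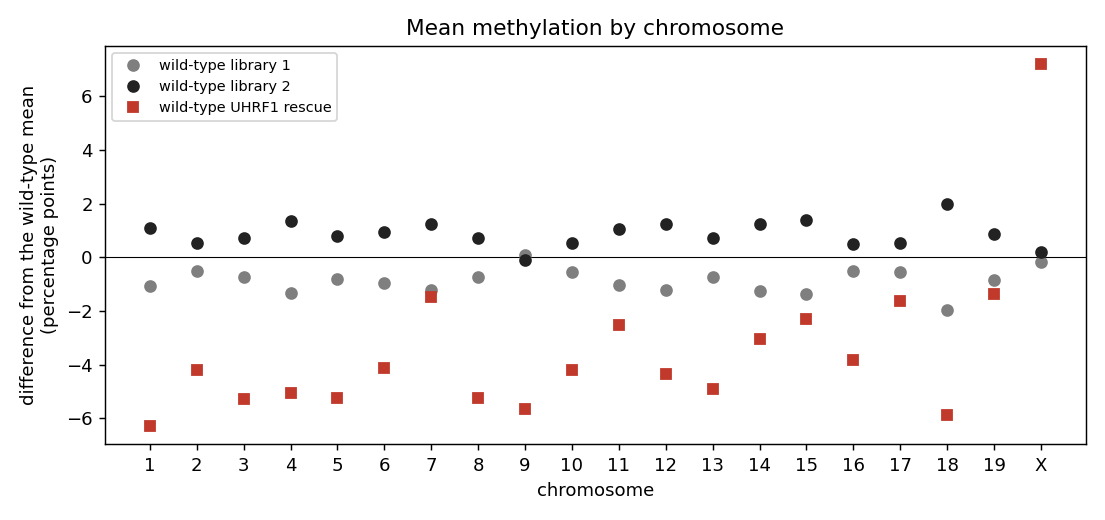
Difference of each library from the mean of the wild-type libraries (percentage points) by chromosome. The rescue lies below both wild-type libraries on all 19 autosomes and 7.20 points above their mean on the X chromosome, which has 99 sites.

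Site by site the rescue was further from each wild-type library than these were from each other. Of the 18189 sites, 7430 had at least 10 reads in each of the 3 libraries. Within 20 points of each other were 77.7% of these sites between the wild-type libraries, 69.2% between the rescue and library 1 and 71.7% between the rescue and library 2. The rescue was lower by 20 points or more at 18.9% of the sites and higher at 11.9% against library 1, and lower at 19.3% and higher at 8.99% against library 2. Library 2 was lower than library 1 at 8.99% of the sites and higher at 13.3%, and these exchange places when library 1 is set against library 2. Against the wild-type mean, 1262 sites (17.0%) lay 20 points or more lower in the rescue and 636 (8.56%) higher. Without wild-type library 1, 2909 of 12983 sites were lower and 1282 higher, and without library 2, 1588 and 1025 of 8506. Beyond counting noise, the root mean square difference at these sites was 20.1 points against library 1 and 19.4 against library 2, beside 14.7 between the wild-type libraries. Pearson's r across sites, which are not independent, was 0.832 and 0.850 for the rescue and 0.901 for the wild-type pair.

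Tests with a spread taken from the replicated groups made no calls. edgeR's quasi-likelihood test with Benjamini-Hochberg adjustment called 0 of 7430 sites. Before adjustment, 146 lower and 139 higher sites had a p under 0.05. limma called 0 of 5836 sites, and before adjustment 455 lower and 201 higher sites had a p under 0.05. edgeR's counts before adjustment, here and for promoters below, are no more than a p under 0.05 gives by chance, and no count before adjustment is read as calls. On simulated libraries of the same depth both tools recovered 0 of 200 falls of 60 points after adjustment, though most of them before it. The counts of 0 after adjustment therefore do not show that no site differed. Applied to single reads, Fisher's exact test compares libraries and not conditions. Of the 7430 sites it called 339 lower and 248 higher against library 1 and 725 and 257 against library 2. For library 2 against library 1 it called 35 and 83. The test calls more sites with more reads, and the rescue was the deepest of these libraries, so the counts cannot be compared between pairs. The authors' deposited values cover all 18189 sites, from 5 reads on, and take the difference from pooled wild-type reads. At a q-value under 0.05 and 20 points, 2450 of these sites are lower and 1189 higher for the rescue. These counts are therefore not comparable with those over 7430 sites.

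Neighbouring CpGs departed from wild type together. The Pearson correlation of the rescue's difference between adjacent sites 1 to 20 bases apart was 0.391 against either wild-type library over 5431 pairs, beside 0.229 for the difference between the wild-type libraries. Over 100 and up to 500 bases apart it was 0.240 and 0.286, beside 0.113, over 757 pairs. From 2001 to 20000 bases it was 0.0548 and 0.0260, beside 0.0543. Adjacent sites often share reads, which raises the short-range values in all pairs of libraries. Counting noise lowers the values and was a larger part of the wild-type difference. Over all sites its root mean square was 23.4 points with counting noise and 19.6 beyond it. For the rescue these were 27.6 and 24.5 against library 1 and 25.3 and 22.6 against library 2. The correlations are therefore descriptions, and their gap between pairs was not tested.

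Averages over clusters of neighbouring sites reduce counting noise. Sites at most 200 bases apart were joined, and 1151 clusters had 3 or more sites of 10 or more reads. Against the wild-type mean 140 clusters (12.2%) were at least 20 points lower in the rescue and 62 (5.39%) higher. Without wild-type library 1, the shallower library, 332 of 2049 clusters were lower and 103 higher, and without library 2, 162 and 103 of 1323. Single libraries are the fair comparison with the wild-type pair. With library 1 as the reference, 144 clusters were low in the rescue and 27 in library 2, and 86 and 70 were high. With library 2 as the reference, 150 were low in the rescue and 70 in library 1, and 48 and 27 were high. Both directions were more frequent in the rescue with either reference, the low one by more.

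**Figure D4:**
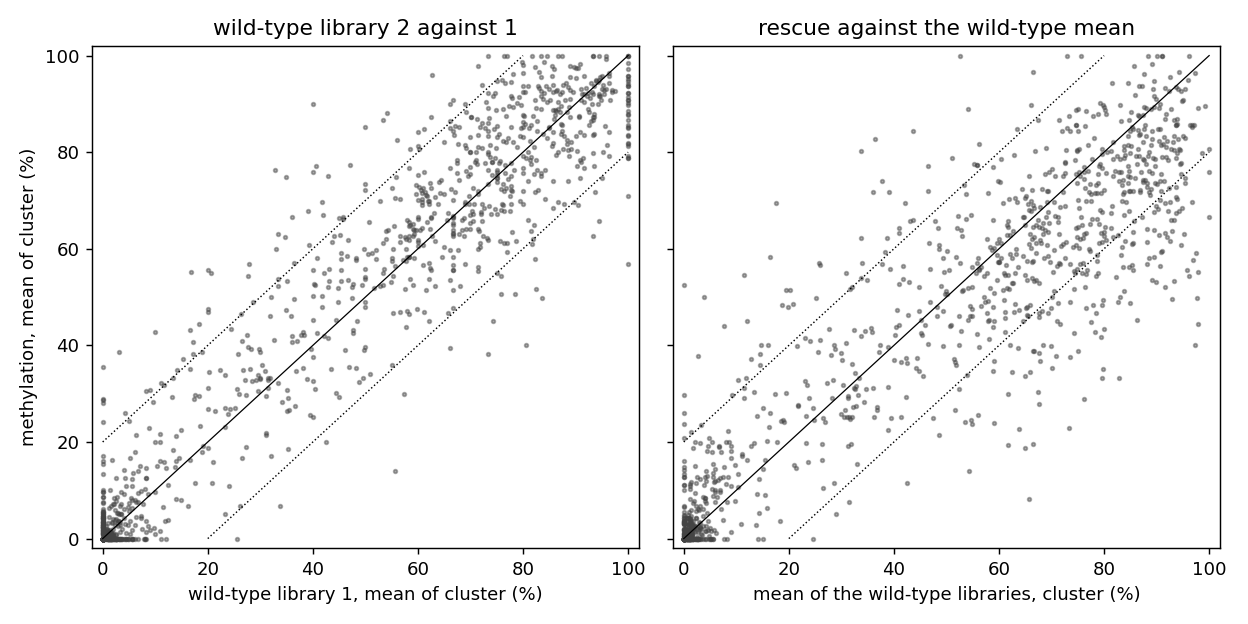
Mean methylation (%) of 1151 clusters of sites, wild-type library 2 against library 1 (left) and the rescue against the mean of the wild-type libraries (right), with the line of equality and dotted lines 20 points away. On the right 140 clusters lie on or below the lower dotted line and 62 on or above the upper one.

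The rescue lay at least 20 points below both wild-type libraries at 93 clusters (8.08%) and above both at 31 (2.69%). The 93 low clusters had median levels of 80% and 83.7% in wild type, 48.3% in the rescue, and 10.7% and 12.3% in Uhrf1-/-. Of them 14 (15.1%) lay in an island or shore, beside 37.9% of all clusters. The 31 high clusters had medians of 16.2% and 22.6% in wild type, 54.7% in the rescue and 3.64% and 2.30% in Uhrf1-/-, and 15 of them (48.4%) lay in an island or shore. A cluster can only fall far if it is methylated and only rise far if it is not, so these features follow in part from the choice.

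Of the 6 clusters outside promoters that were furthest below the nearer wild-type library, 2 had the rescue under the higher Uhrf1-/- library. The first lay between genes with Rufy1, which encodes an endosomal adaptor, as the nearest start (chromosome 11, 50461306 to 50461427, 4 sites). Wild type measured 62.1% and 69.3% there, the rescue 8.16% (Wilson 95% interval of the pooled reads 4.65% to 14.1%, 134 reads) and Uhrf1-/- 22.6% and 13.7%. The rescue was thus no higher than cells without UHRF1. The second lay between genes on chromosome 4 (140303263 to 140303333, 4 sites), with 66.7% and 63.3% in wild type, 18.7% in the rescue and 26.0% and 24.5% in Uhrf1-/-. An intron site group (chromosome 16, 5103207 to 5103219) had its nearest start inside Ubn1, of the HIRA histone chaperone complex. It measured 95.8% and 100% in wild type and 44.3% in the rescue. A shore near Nkx6-1, a transcription factor of insulin-producing cells (chromosome 5, 101646452 to 101646493), measured 73.3% and 73.4% in wild type and 22.8% in the rescue. The other 2 of the 6 lowest clusters, on chromosomes 12 and 13, went from at least 94.4% in wild type to 49.9% and 40% in the rescue.

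Among clusters outside promoters, the largest distance above the nearer wild-type library was in an exon cluster (chromosome 11, 79014751 to 79014853, 3 sites). Its nearest start lay inside Ksr1, a scaffold of the MAP kinase pathway. It measured 7.84% and 0% in wild type and 49.9% in the rescue. Between genes, with the nearest start inside Prss8, a membrane serine protease (chromosome 7, 127931221 to 127931356, 5 sites), the values were 16.5%, 16.2% and 58.3%. Depth differed between those 5 sites, and of the 121 rescue reads pooled over them only 40 were methylated (Wilson 95% interval 25.3% to 41.8%). The Tent5d cluster (chromosome X, 107737328 to 107737425, 8 sites) measured 26.4% and 46.5% in wild type and 82.7% in the rescue (Wilson 95% interval 74.1% to 88.4%, 108 reads). Intron clusters with the nearest start inside Trpm1, a cation channel of the retina, and Vps50, of endosome recycling, were also high. They measured 84.3% and 71.8% in the rescue, above wild-type values between 33.3% and 53.8%. An exon cluster on chromosome 8 stood at 5.56% and 0% in wild type and at 37.8% in the rescue.

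There were 422 promoters with 3 or more sites of 10 or more reads. Of these, 217 were under 10% in all 5 wild-type, rescue and Uhrf1-/- libraries, so their closeness says little about regain. Against the wild-type mean 22 (5.21%) were at least 20 points lower and 18 (4.27%) higher, and the other 382 were within 20 points. By any amount, 110 (26.1%) lay below both wild-type libraries, 146 (34.6%) above both and 166 (39.3%) neither. Any library of a like set would often lie outside the others by some amount, so nothing is read from these counts. Without wild-type library 1, 47 of 575 were lower and 33 higher. With library 1 as the reference, 25 promoters were low in the rescue and 4 in library 2, and 21 and 19 were high. With library 2 as the reference, 29 were low in the rescue and 19 in library 1, and 15 and 4 were high. Outside both wild-type libraries by 20 points were 16 promoters (3.79%) below and 12 (2.84%) above. Of the 12 high promoters 9 lay in island shores, beside 44.1% of all 422, and of the 16 low ones 5. Promoter sites in shores averaged 12.1% in wild type, and those outside islands and shores 52.5%. Since only a sparsely methylated promoter can rise far, these shares follow in part from the choice. edgeR on reads summed per promoter called 0 of 422, and limma called 0 of 375. Before adjustment, 3 lower and 14 higher promoters had a p under 0.05 in edgeR and 26 and 32 in limma.

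Of the 10 promoters furthest below wild type 6 lay outside islands and shores, 3 in shores and 1 in an island. They measured 54.4% to 92.9% in wild type and 23.6% to 59.3% in the rescue, each with the rescue above both Uhrf1-/- libraries. Gm5099 (chromosome 1, 38132421 to 38132483, 4 sites) had the most reads, with 91.2% and 92.0% in wild type, 10.7% and 21.3% in Uhrf1-/- and 52.1% in the rescue (Wilson 95% interval 46.3% to 57.8%, 288 reads). The wild-type libraries were 0.831 points apart there, and the rescue was far outside them. Sycp1, of the synaptonemal complex of meiosis (chromosome 3, 102936699 to 102936884, 4 sites), measured 65.7% and 67.4% in wild type and 38.8% in the rescue. A start inside Bace2, an aspartyl protease related to β-secretase, measured 89.6%, 69.7% and 33.3% on 30 rescue reads. Starts inside Zfp651, a zinc finger gene, Cd6, a receptor of T cells, Slc38a11, of an amino acid transporter family, Nfix and Proser1 measured 51.3%, 48.9%, 59.3%, 42.9% and 34.5% in the rescue. Nfix thus had a low stretch at an inner start and the high stretch printed above at its RefSeq start. The other 2 of the 10, on chromosomes 13 and 16, measured 23.6% and 48.8% in the rescue.

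The 10 promoters furthest above wild type were mostly in shores (7 of 10) and sparsely methylated in wild type, which follows in part from the choice. Kdelr3, a receptor that returns proteins to the endoplasmic reticulum (chromosome 15, 79517295 to 79517321, 3 sites), was at 0% in both wild-type and both Uhrf1-/- libraries and at 52.5% in the rescue (Wilson 95% interval 38.7% to 64.9%, 52 reads). Wild type had 30 and 36 reads summed over the 3 sites. If these were independent, a count of 0 would allow levels of up to 10% and 8.33% (3 counts of the total). The 3 sites lie close together, so a read can be counted at each, and the true limits are then higher. A start inside Tmem94 measured 13.9% and 21.2% in wild type and 69.4% in the rescue on 168 reads. A start inside Eif4a3, a helicase of the exon junction complex, measured 57.9% and 47.2% in wild type and 100% in the rescue on 41 reads. Csmd3, with 9 sites at a start inside the gene, measured 4.398% and 10.8% in wild type and 44.1% in the rescue. Starts at or inside Sdccag8, a centrosomal protein, Spats2, Rab12, a small GTPase, Ushbp1, Gm9901 and Gfod2 measured 80.3%, 54.7%, 55.6%, 44.95%, 25.9% and 41.5% in the rescue. In each of the 10 no wild-type value reached the rescue, and these genes were chosen for that difference.

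**Figure D5:**
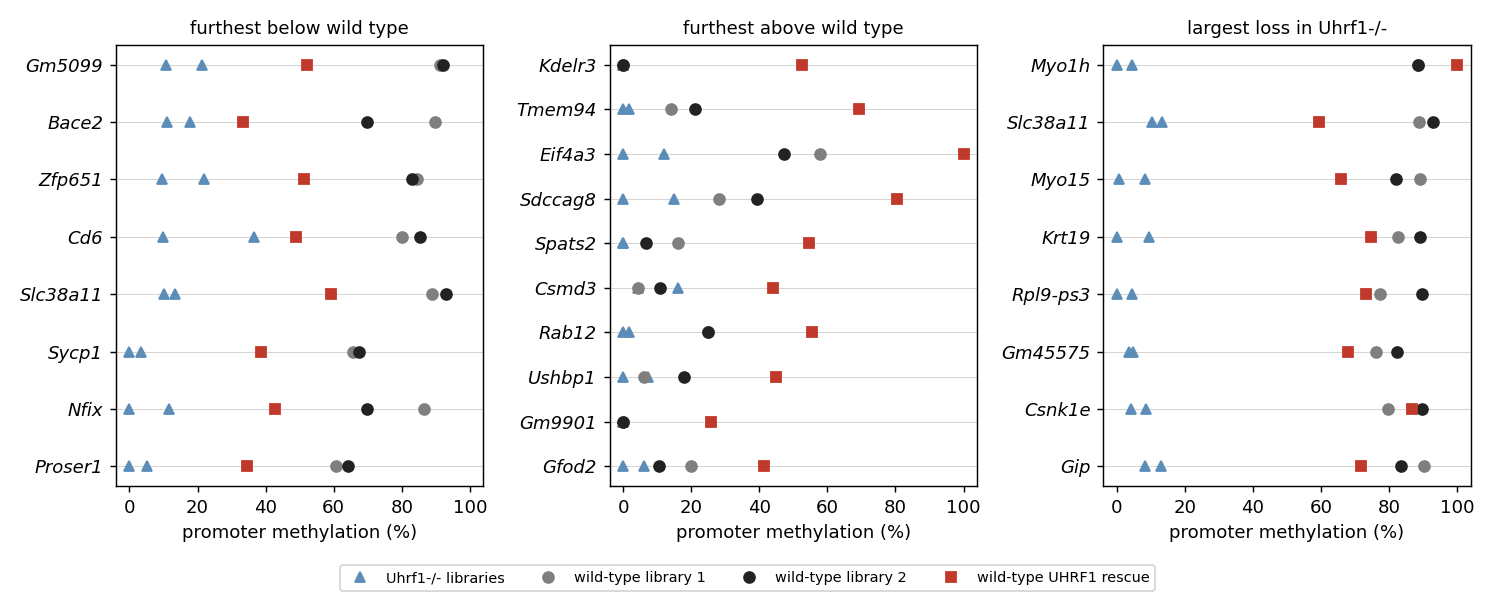
Promoter methylation (%) in the wild-type libraries (grey and black), the rescue (red) and the Uhrf1-/- libraries (blue) for the promoters furthest below wild type, furthest above wild type and with the largest loss in Uhrf1-/-. Promoters without a gene symbol are left out. The rescue reaches 100% at starts inside Eif4a3 and Myo1h and 33.3% at a start inside Bace2.

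Promoters were also chosen for the largest loss in Uhrf1-/-, without regard to the rescue. High wild-type levels were part of this choice, so any library that was not used for it tends to fall below them, and nothing is read from that direction. The 10 with the largest gap between the lower wild-type and the higher Uhrf1-/- library measured 76.2% to 92.9% in wild type. In the rescue they measured 48.8% to 100%. Of the 10, 8 were within 20 points of the wild-type mean. A start inside Myo1h, a class I myosin (chromosome 5, 114364044 to 114364092, 3 sites), measured 88.5% and 88.4% in wild type and 100% in the rescue. A start inside Csnk1e, casein kinase 1 epsilon, which sets the pace of the circadian clock (8 sites), measured 79.6%, 89.8% and 86.7%. This start thus returned to the wild-type range. Starts inside Krt19, an epithelial keratin, the incretin gene Gip and Myo15, a motor protein of hearing, measured 74.7%, 71.7% and 65.8% in the rescue. Wild-type values there were between 82.0% and 90.1%. A stretch of 21 sites on chromosome 2 (98666682 to 98667255) held 6505 rescue reads and measured 81.2% and 85.1% in wild type and 75.9% in the rescue (Wilson 95% interval 74.7% to 76.8%). The Uhrf1-/- libraries held 50855 and 73105 reads there, and the median promoter held 135 rescue reads. Whether these reads come from 1 place in the genome was not tested, so the values may not describe a single promoter. Other promoters reached up to 67859 rescue reads.

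Few members of the gene lists were measured. Without a minimum number of sites, and from 5 reads on, 1483 promoters could be compared, of which 161 (10.9%) were at least 20 points lower in the rescue and 125 (8.43%) higher, with a median difference of 0 points. Of 28 imprinted genes 4 had promoter sites, with 1 lower and 0 higher. At H19, an imprinted RNA gene methylated on 1 parental copy (chromosome 7, 142575795 to 142575968, 4 sites), wild type measured 70.8% and 55.6% and the rescue 36.9%, on 28, 64 and 78 reads. Mest measured 44.4%, 57.1% and 55.7%, Gnas 0%, 0% and 15.4% at 1 site, and Inpp5f 0% in all 3. Inside the gene, Grb10 measured 100%, 82.5% and 74.4% and Peg10 88.7%, 79.2% and 79.5%.

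Of 29 germline genes 4 had promoter sites, with 1 lower (Sycp1) and 0 higher. Meioc, a meiotic regulator, measured 62.6% and 62.7% in wild type and 63.7% in the rescue over 9 sites, and Smc1b and Tdrd1 were at 0% in all 3. Sycp1 and Meioc were alike in wild type and lay apart in the rescue, a difference that was not tested. Inside the gene, Tdrd9 measured 100%, 89.3% and 95.5%, and Mov10l1 100% in all 3 at 1 site. Lineage transcription factors had 5 promoters, with 0 lower and 0 higher. Neurog1, of neurogenesis, measured 0%, 0% and 10.6%, Pax7, of muscle stem cells, 0%, 0% and 3.81%, and Olig2, of oligodendrocytes, 0%, 2.90% and 1.85%. Lhx2 stood at 0% in the rescue and Hoxa9 at 33.3% in all 3. Within Gata4, of heart and endoderm, 6 sites measured 9.52%, 27.8% and 0%, and within Pax7 10 sites measured 14.4%, 15.4% and 16.1%. The pluripotency genes Sox2 and Nr5a2 were at 0% in the rescue. Among genes of the methylation machinery no promoter was measured. Within Dnmt3b, a de novo methyltransferase, 3 sites measured 73.3% and 61.4% in wild type and 22.2% in the rescue. These rest on only 16 and 24 reads in wild type and 54 in the rescue, summed over the sites. A single site within Dnmt3a measured 100%, 42.9% and 57.1%, on 8, 14 and 14 reads. Of the genes of other cell types, 6 sites within the collagen gene Col1a1 measured 91.7%, 86.2% and 64.9%, 1 site at Col3a1 0%, 44.4% and 41.7%, and 1 site within Ptprc 0%, 28.6% and 43.2%.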

How the data were processed

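Methylation was measured by double-enzyme reduced representation bisulfite sequencing, which enriches CpG-rich fragments, on an Illumina NextSeq 500, per the labels' protocols. The submitters' processing notes name cutadapt, Trim Galore, BSMAP 2.73 and the build mm10. For the settings, caller and test, the sources used here give nothing. The authors deposited read counts per site and strand (total, methylated, unmethylated), at least 5 per library. The deposited fraction per library equals methylated over total reads and was recomputed as a percent. The authors' p-value and q-value were used only as counts of listed sites. The authors' deposited difference, a score in percentage points, equals the rescue level minus that of pooled wild-type reads.

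The rescue column was matched to its sample as the only Uhrf1-/- column with added UHRF1 that does not name the mutant, and a final 2 in its name is not explained by the labels. Annotation classes are the authors'. Transcript starts were named by a RefSeq start on the same strand within 500 bases (2042 of 6083), otherwise by the single gene that holds the start, written "inside" (3156), and 885 were unnamed. A gene's promoter sites over 2000 bases apart were separated. Sites needed 10 reads, clusters and promoters 3 such sites. The size threshold was 20 points, and means are unweighted over sites. Counting noise was removed by subtracting the binomial variance of each site. Python 3.11.15, numpy 2.4.6, pandas 2.3.3, scipy 1.17.1, matplotlib 3.10.9, R 4.3.3, edgeR 4.0.16 and limma 3.58.1 were used. edgeR and limma took their spread from the wild-type and Uhrf1-/- pairs, and limma used features that differed within a pair. Fisher's exact test against pooled wild-type reads recovered 187 of 200 simulated falls of 60 points with 3 false calls among 7430 sites. That simulation held counting noise only and no spread between libraries, so it does not give the rate of false calls in these data.

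The members and lists were chosen with earlier results of these data known. Named promoters are the 10 furthest below, the 10 furthest above both wild-type libraries and the 10 with the largest Uhrf1-/- loss, with 6 clusters outside promoters each way and every measured list member. Alternatives covered reads, size, test, weighting, cluster gap and each wild-type library left out. The Mof knockdown table was not used here.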

Additional observations from a re-analysis of the deposited data

How the results depend on the processing

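Of 81 alternative values, 36 stayed close to the main one. The mean difference of -3.88 points over all sites was -1.45 at sites with at least 20 reads and 0.199 with reads pooled over all sites. It was -1.01 with reads pooled over sites of at most 200 reads, an alternative chosen after seeing the data. Leaving out a wild-type library gave -4.76 to -2.996. Counts of sites, 1262 lower and 636 higher, were 3665 and 2027 at 5 reads and 172 and 103 at 20 reads, where 18189 and 1773 sites could be compared. They were 686 and 320 at 30 points, 409 higher outside both wild-type libraries, 793 and 341 by Fisher's test on pooled wild-type reads, and 0 and 0 by edgeR and by limma. Leaving out a wild-type library gave 1588 to 2909 lower and 1025 to 1282 higher, with 8506 and 12983 sites able to enter. Clusters, 140 lower and 62 higher, were 446 and 202 at 5 reads and 27 and 16 with 5 sites each, and 162 to 332 lower and 103 higher with a wild-type library left out. Promoters, 22 lower and 18 higher, were 161 and 125 with any number of sites, 0 and 0 by edgeR, and 24 to 47 and 25 to 33 with a library left out. Low, intermediate and high sites differed by 2.29, -7.31 and -10.9 points with classes set on library 1. Set on library 2 the last 2 were -3.32 and -9.19. Set on the wild-type mean they were 4.92, -0.250 and -17.2, and this setting lets the noise of the class into the difference. Promoter sites ran from -0.981 to 0.504 and islands from -0.0443 to 0.477 with a wild-type library left out, so their direction was not fixed. The difference beyond counting noise was 24.5, 22.6 and 19.6 points for the rescue with library 1, with library 2 and for the wild-type pair at 5 reads, 20.1, 19.4 and 14.7 at 10, and 15.1, 13.8 and 9.82 at 20. The wild-type pair was the closest at each depth. No paired analysis was possible because the rescue is 1 library whose label carries no sample number, and the final 2 of its column name is unexplained. Depth limits single sites most, since a median of 10 reads in wild-type library 1 resolves steps of 10 points.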
